A study of Homo sapiens with 15 samples.

Results

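The introns described here are those of the human ZNF genes, taken as every intron listed under a single gene name made of ZNF, digits and at most 1 closing letter. There were 1079 such introns of 228 genes, among 111143 introns of 12010 gene names in the 4 tables of the study. Of these, 612 introns of 156 genes were listed in all 4 tables. Chromosome 19 held 233 of the 1079 introns and 71 of the 228 genes. The study sequenced polyadenylated RNA from HCT116, an established human colon cancer cell line, in 5 groups of 3 libraries. One group was the wild type (WT), and the others were 4 clones numbered KO-1 to KO-4, each labelled as deficient for bktRNA1, an RNA that the labels do not describe further. One growth protocol in serum-containing medium is given for every group, and no treatment. The labels describe the triplicates as independent experiments, and each KO group is 1 clone, so a difference between a clone and WT cannot be told apart from a difference between cell clones.

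Most ZNF proteins are transcription factors that bind DNA through a row of C2H2 zinc fingers, each a short fold of cysteines and histidines around a zinc ion. A large subset also carries a KRAB domain at its start, which recruits the co-repressor TRIM28 and through it histone methylation and heterochromatin, a pathway best known for silencing transposable elements. These genes multiplied by tandem duplication, and many lie in clusters on chromosome 19. The fingers are usually encoded in 1 long last exon, with the KRAB domain in short exons before it. Some ZNF names belong to proteins of other kinds, such as ZNF185, an actin-associated LIM domain protein, and ZNF598, a ubiquitin ligase that recognises collided ribosomes. A retained intron is one that stays in the polyadenylated RNA, and such transcripts are often held in the nucleus or degraded.

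By translation of annotated transcripts, 95 of the 228 genes matched a KRAB domain at 9 or more of 11 fixed residues. This held for 47 of the 71 genes on chromosome 19 and for 48 of the 157 others. The median number of C2H2 fingers was 10 per gene on chromosome 19 and 7 elsewhere. The genes formed 12 clusters, defined as runs of at least 5 listed ZNF genes with neighbours within 1 Mb, and 7 of these lay on chromosome 19 with 57 genes. The median ZNF intron was 1424 bases long, against 1316 over all introns. An annotated exon of any gene, on either strand, overlapped 51.5% of the ZNF introns and 38.1% of all introns. Below, these are called introns with an annotated exon inside, also where the exon covers only an end or the whole intron. Reads over an intron boundary can there belong to that exon. Another gene overlapped 199 of the ZNF introns on the opposite strand and 112 on the same strand.

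Splice sites of introns of ZNF384, ZNF580 and ZNF146 that the retention results turn on are shown first, to place them among the ordinary GT to AG introns of the major spliceosome. They were read on the gene's strand from GENCODE 29 transcripts (GRCh38) whose exons run across the site, and a site that no exon covers is not shown. A 5′ site has 3 exon bases and 8 intron bases, a 3′ site has 20 intron bases and 3 exon bases, and the capitals mark the first or last 2 bases of the intron.
ZNF384 intron 7 5′ site: ccgGTaaggct
ZNF384 intron 8 5′ site: acgGTaaggga
ZNF580 intron 1 3′ site: ctcccctccgccgctcccAGctg
ZNF146 intron 2 3′ site: ctgtgtcattttcccaatAGtta
Over all ZNF introns, 331 different 5′ sites could be read, of which 329 began with GT and 2 with GC, and all 329 of the 3′ sites read ended with AG. Both ends could be read for 181 introns, of which 180 were of the major, U2 type. The other was of the rare U12 type, which a separate minor spliceosome removes and whose 5′ site carries a longer fixed sequence, here in capitals.
ZNF207 U12-type 5′ site: ctgGTATCCTT
That intron, chr17:32350327-32351797, was hardly seen spliced. It had 1164, 1348 and 1182 retained and 0 spliced reads in the WT libraries, and 850, 897 and 681 retained and 2, 0 and 0 spliced reads in KO-1, the only table that listed it. Annotated exons run across both ends of this intron, so its retained reads can belong to them, and their part was not tested. The intron was too seldom spliced to be tested.

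Over the 83066 introns listed in all 4 tables, the libraries held between 17287797 and 35348260 junction reads, with the 3 KO-1 libraries lowest at 17287797 to 20454252. Retained reads made up 24.6% to 27.3% of the junction reads of ZNF introns in the 15 libraries and 12.3% to 13.7% of those of all introns. Every listed intron had at least 20 junction reads in each library. Introns of 6 of 8 epithelial marker genes were listed (not CDX1 or VIL1), and of 8 markers of other cells those of COL1A1 and VIM. bktRNA1 itself was not analysed here, and each genotype is as labelled.

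ZNF introns were more thinly covered than those of other genes. The median ZNF intron had 52 junction reads per WT library, and 41.3 on chromosome 19, against 115 for introns of other genes. Of 780 ZNF introns listed for KO-2, KO-3 and KO-4, 612 (78.5%) were also listed for KO-1, the clone with the fewest reads. That share was 70.5% on chromosome 19, 80.4% for other ZNF introns and 92.4% for introns of other genes. The ZNF introns listed in all 4 tables had a median of 76.7 junction reads per WT library.

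In WT cells the median ZNF intron was retained at 3.65%, against 1.08% for introns of other genes, where retention is the share of retained reads after each form is scaled for its length. Retention of at least 10% was seen for 380 of the 1079 ZNF introns (35.2%) and for 20.8% of introns of other genes. The median was 5.41% for ZNF introns on chromosome 19 and 3.52% for those elsewhere, while other genes of chromosome 19 had a median of 1.71%. Genes with a KRAB match had a median of 4.18% and those without 3.53%. The related ZFP, ZSCAN and ZKSCAN genes, which the naming rule leaves out, had a median of 9.17% over 83 introns. These medians are descriptions, since introns of 1 gene share reads and introns share libraries.

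The annotation divided ZNF introns more than the chromosome did. The 556 with an annotated exon inside had a median retention of 16.1%, and 113 of them stood at 90% or more. The 523 with no annotated exon inside had a median of 1.59%, with 5 at 90% or more. All introns with no exon inside had a median of 0.586%, so ZNF introns lay above the general level in this class too. The plot of wild-type retention shows both divisions.

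**Figure D1:**
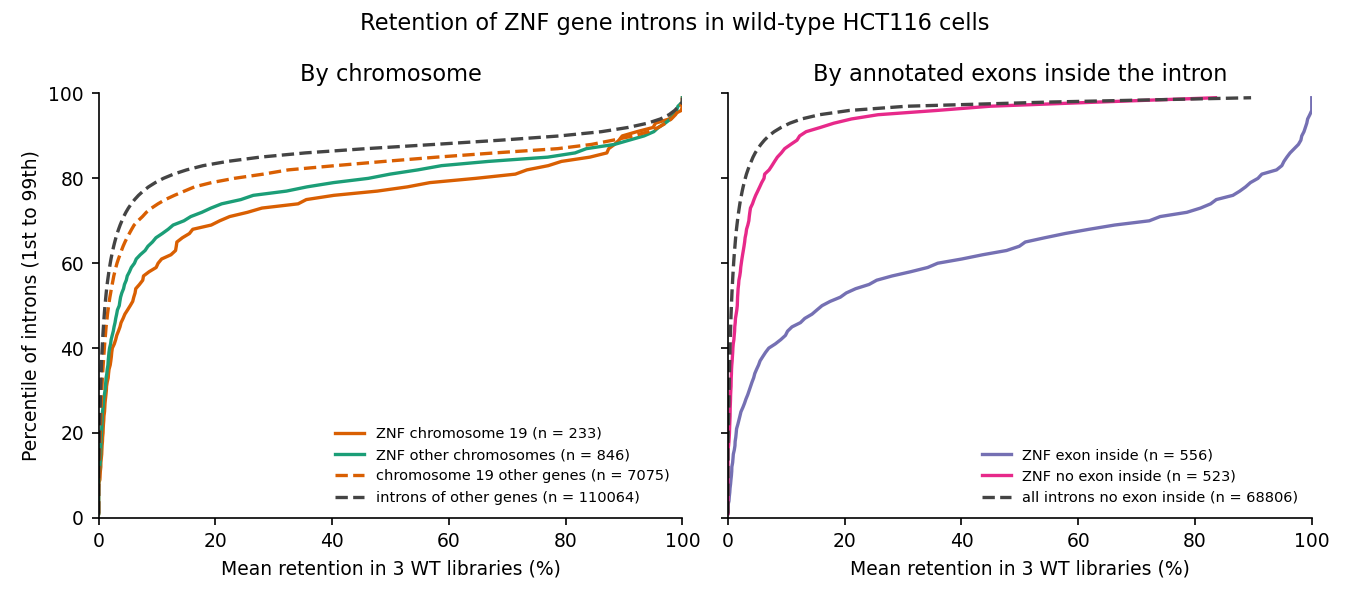
Percentile of introns (vertical axis, 1st to 99th) against mean retention in the 3 WT libraries (horizontal axis, %). Left, ZNF introns on chromosome 19 and elsewhere (solid) and introns of other genes (dashed); right, ZNF introns with and without an annotated exon inside (solid) and all introns without one (dashed). The ZNF curves lie to the right of the dashed curves over most of their course, with medians of 5.41%, 3.52%, 1.71% and 1.08% on the left and 16.1%, 1.59% and 0.586% on the right.

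Next come the 5 most retained ZNF introns that could be compared in all 4 clones, at most 1 per gene. Intron 4 of transcript ZNF384-202 (chr12:6678344-6678945) was retained at 91.5%, 92.9% and 88.3% in WT, and its clone means lay between 89.9% and 93.4%. Intron 1 of ZNF131-206 (chr5:43121829-43122038) stood at 80.5% ± 7.44 (SD, n = 3) in WT and between 79.4% and 85.8% in the clones. Both have an annotated exon inside.

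Intron 3 of ZNF692-201 (chr1:248857498-248857827), with an annotated exon inside, was retained at 64.5%, 60.6% and 67.2% in WT. KO-2 libraries had 73.6%, 77.3% and 74.1% and KO-4 libraries 71.7%, 75.1% and 79.2%, all above the WT libraries, while KO-1 and KO-3 means were 63.9% and 62.0%. Neither rise passed the test (quasi-binomial adjusted p = 0.247 and 0.193), but the clones differed among themselves (adjusted p = 0.0337). ZNF557 intron 3 of transcript ZNF557-202, on chromosome 19, had 62.6% ± 4.45 (SD, n = 3) in WT and clone means between 50.3% and 58.5%. The fifth of these highly retained introns, of ZNF706, had 61.4% ± 13.1 (SD, n = 3) in WT and clone means between 57.4% and 68.1%.

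At the other end were the least retained introns that could be tested in all 4 clones, at most 1 per gene. An intron of ZNF706 had 1.13% ± 0.0297 (SD, n = 3) in WT, with clone means between 0.988% and 1.25%. ZNF207, a kinetochore and spindle protein, had 1.24% ± 0.845 at chr17:32360968-32361467, with clone means between 1.18% and 2.32%. The last intron of ZNF146 had 1.42% ± 0.488 in WT and clone means between 1.62% and 2.10%. ZNF638, a nuclear DNA-binding protein, had 2.74% ± 0.430 at its intron 25 of ZNF638-203, and all 4 clone means were higher, between 3.45% and 4.90%. The only intron of ZNF768-201 had 3.55% ± 0.548, and its clone means lay between 4.58% and 6.55%. None of these passed the test in any clone, with quasi-binomial adjusted p-values of at least 0.204.

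The test of retention asks whether a clone differs from WT by more than its 3 libraries vary, for introns whose retained reads and spliced reads each average 10 or more a library. It reached 137, 196, 189 and 198 ZNF introns for KO-1 to KO-4, and 127 introns of 66 genes, 21 of them on chromosome 19, could be tested for all 4. At an adjusted p under 0.05 it called 0 ZNF introns for KO-1, where 1.47% of all 18804 introns tested were called. KO-2 had 2, both lower, with 1.6% called over all introns. KO-3 had 3, all higher, with 0.713% of all introns called, and KO-4 had 1, higher, with 1.97% of all introns called. For KO-1, 7 ZNF introns had an unadjusted p under 0.05 in this test, and limma on log2 odds called 0 as well. No ZNF intron was called in more than 1 clone by this test. At these counts the share of ZNF introns called lay close to or below that of all introns, except that KO-3 had 1.59% of its ZNF introns called, from 1 gene.

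In KO-2, adjacent introns 9 and 10 at the end of ZNF276 were retained less. Intron 10 of ZNF276-201, 70 bases long (chr16:89737906-89737975), was retained at 47.8%, 50.8% and 46.6% in WT. In KO-2 it was retained at 34.8%, 31.2% and 29.9%, so the groups did not overlap. The change was -1.004 ± 0.20 (SE) in log2 odds (quasi-binomial adjusted p = 0.000804). Retained reads were 149, 182 and 166 in WT and 155, 143 and 148 in KO-2, while spliced reads were 106, 115 and 124 in WT and 189, 206 and 226 in KO-2.

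Intron 9 of ZNF276-201 (chr16:89734039-89737805) moved the same way, from 33.3%, 36.4% and 34.4% in WT to 21.5%, 23.2% and 19% in KO-2. Its change was -0.98 ± 0.23 (SE) in log2 odds (quasi-binomial adjusted p = 0.00658). KO-3 stood at 34.8% ± 4.41 (SD, n = 3), level with WT. The clones differed among themselves at both introns (adjusted p = 0.000156 and 0.0024). By limma on log2 odds neither KO-2 change passed (adjusted p = 0.294 and 0.307). That test called only 7 introns higher and 2 lower of all 23669 in KO-2, against 307 and 72 by the quasi-binomial test. Intron 9 did not pass the quasi-binomial test without the third KO-2 library (adjusted p = 0.0585).

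ZNF276 ends against FANCA, a Fanconi anaemia DNA repair gene on the opposite strand. FANCA and an annotated exon each overlap both introns, at least in part. Spliced reads of FANCA were 5847 ± 533 (SD, n = 3) in WT and 4691 ± 43.1 in KO-2, a fall of 0.31 on the log2 scale (limma adjusted p = 0.000185). Those of ZNF276 rose in KO-2 from 859 ± 134 to 1291 ± 145 (log2 change 0.59 ± 0.10, limma adjusted p = 3.09e-05). The ZNF276 sum includes the spliced reads of both introns. The library kit keeps strand, but whether the counting used it is not given in the sources used here, and the part of FANCA reads in the retained reads was not tested.

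In KO-3, retention rose at 3 introns of ZNF384, of which 2 overlap and the other is their neighbour. ZNF384, also called CIZ or NMP4, is a C2H2 factor that binds homopolymeric A tracts and is a fusion partner in acute leukaemia. Intron 7 of ZNF384-201 (chr12:6670839-6673215) was retained at 0.971%, 1.31% and 2.16% in WT. In KO-3 it was retained at 11.4%, 11.1% and 16.6%, and every other clone library lay at 3.57% or below. The change was 3.23 ± 0.54 (SE) in log2 odds (quasi-binomial adjusted p = 2.99e-07), and the clones differed among themselves (adjusted p = 4.59e-12).

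Intron 8 of ZNF384-203 (chr12:6670839-6672349) shares the downstream end with intron 7 of ZNF384-201 and stops at an exon inside it. It was retained at 8.05%, 4.76% and 8.62% in WT and at 22.9%, 28.8% and 33.7% in KO-3. This was 2.30 ± 0.52 (SE) in log2 odds (quasi-binomial adjusted p = 0.00196), and the clones differed (adjusted p = 3.72e-12). KO-2 had the lowest mean, 3.68% ± 1.70 (SD, n = 3). By limma on log2 odds the KO-3 change at this intron had an adjusted p of 0.0769, where that test called 12 introns higher and 1 lower of all 21865.

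Intron 9 of ZNF384-203 (chr12:6669190-6670759) is the next one and has no annotated exon inside. It was retained at 2.09%, 2.90% and 1.78% in WT and at 10.7%, 10.5% and 11.7% in KO-3, a change of 2.40 ± 0.44 (SE) in log2 odds (quasi-binomial adjusted p = 3.17e-05). Here the other clones also lay above WT, at 4.60% ± 1.62, 5.05% ± 0.833 and 5.51% ± 1.62 (SD, n = 3) for KO-1, KO-2 and KO-4, with every library of each above every WT library. KO-2 and KO-4 had adjusted p-values of 0.208 and 0.095 in the same test, and KO-1 had too few retained reads to be tested. The authors' deposited tables called this intron higher in KO-2 (adjusted p = 0.0414), KO-3 (1.4e-11) and KO-4 (0.0119). The clones differed among themselves (adjusted p = 0.00188).

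One more intron in the same stretch, intron 7 of ZNF384-203 (chr12:6672533-6673215), had 10.1% ± 6.13 (SD, n = 3) in WT and 26.5% ± 4.83 in KO-3 (quasi-binomial adjusted p = 0.0605). Introns 7 and 8 of ZNF384-203 each share a boundary with intron 7 of ZNF384-201 and so share reads with it, and they are not separate measurements from it. Intron 9 of ZNF384-203 shares no boundary with them, but only 1 short exon lies between, and whether single reads reach across it was not examined. AC125494.1 lies opposite to the 3 called introns. Its spliced reads were 191 ± 23.8 (SD, n = 3) in WT and 217 ± 21.1 in KO-3, which did not pass the test (limma adjusted p = 0.29), and its part in the retained reads was not tested. The spliced reads of ZNF384 as a whole rose by 0.23 ± 0.08 (SE, log2) in KO-3 (adjusted p = 0.0248), and this call did not hold when libraries were scaled by total spliced reads (0.16, adjusted p = 0.116) or without WT library 1 or 2 or KO-3 library 1 (adjusted p = 0.0657 to 0.121).

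In KO-4, the intron of ZNF580-201 (chr19:55641184-55642496) in a cluster on chromosome 19 was retained at 21.6%, 24.9% and 18.9%, against 12.8%, 11.5% and 13.5% in WT. The change was 0.96 ± 0.28 (SE) in log2 odds (quasi-binomial adjusted p = 0.044). The means of the other clones lay between, at 14.3%, 15.6% and 16.2%, and the clones did not differ among themselves by the test (adjusted p = 0.179). The call was thin. It was lost without any 1 of WT libraries 1 and 2 or KO-4 libraries 1 to 3 (adjusted p = 0.0622 to 0.266), with retention centred on the median intron of each library (adjusted p = 0.115), and by limma on log2 odds. Limma on log2 odds called only 8 introns higher and 0 lower of all 24269 in KO-4. An annotated exon and the genes CCDC106 and ZNF581 on the same strand overlap the intron, so its reads can belong to more than 1 gene. Spliced reads of ZNF580 fell in KO-4 by 0.42 on the log2 scale (limma adjusted p = 0.0245). That sum includes the spliced reads of this intron, 432 in the WT and 332 in the KO-4 libraries together. The fall is therefore not a separate measurement from the retention change.

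The authors' deposited tables carry their own p-values for every listed intron, whatever its depth. At their adjusted p under 0.05 they held 5, 9, 10 and 14 ZNF introns for KO-1 to KO-4, which is 0.743%, 0.957%, 1.11% and 1.46% of the ZNF introns listed. Over all introns the same rule of the authors' deposited tables gave 0.82%, 1.16%, 0.548% and 1.4%. These 38 calls fell on 32 introns of 26 genes, and 11 of the 38 had enough retained and spliced reads for the quasi-binomial test. The introns described next were chosen from these after their values were seen.

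ZNF653 showed the widest gap. Intron 4 of ZNF653-206 (chr19:11484142-11485655), with no annotated exon inside, had 1, 0 and 0 retained and 30, 39 and 50 spliced reads in WT. In KO-1 it had 16, 13 and 16 retained and 13, 14 and 9 spliced reads. Retention was therefore 1.64%, 0% and 0% in WT and 38.1%, 31.7% and 47.1% in KO-1, against 0% in all 3 KO-2 libraries, 1.76% ± 0.496 in KO-3 and 3.69% ± 2.54 in KO-4 (SD, n = 3). Summed over libraries the odds ratio was 145, with an exact 95% interval of 23.1 to 6052 that covers counting error only. The authors' deposited table called it for KO-1 only. A gene named AC008481.3 overlaps it on the same strand. Spliced reads over the whole of ZNF653 were 97.1 ± 22.2 in WT and 81.0 ± 5.49 in KO-1 (SD, n = 3; limma adjusted p = 0.271).

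ZNF146, also called OZF, is a protein of zinc fingers alone that is overexpressed in colorectal cancers. Its intron 2 (chr19:36218196-36228747), with no annotated exon inside, was retained at 2.19%, 1.87% and 2.33% in WT. KO-2 libraries had 13.7%, 8.94% and 4.58%, KO-3 libraries 8.51%, 8.53% and 5.26%, and KO-4 libraries 12.96%, 13.3% and 7.53%. All 9 lay above all WT libraries, on 11 retained reads in WT and 31, 33 and 29 in the clones. It was not in the KO-1 table. The authors' deposited tables gave adjusted p-values of 0.00408, 0.0142 and 0.000299 for the 3 clones, which share their WT libraries. ZNF565 overlaps it on the opposite strand, and no intron was listed under that name alone, so its spliced reads were not tested. The odds ratios of summed reads were 4.23, 3.85 and 5.79, with exact 95% intervals of 2.004 to 9.59, 1.84 to 8.66 and 2.697 to 13.3.

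Further deposited calls were those of ZNF205, ZNF195 and ZNF197. For ZNF205 intron 4 in KO-1, 1 library had 13.98% and the others 1.05% and 2.7%, against 1.39%, 1.11% and 0% in WT. The authors' deposited table called the same intron in KO-4 (adjusted p = 0.0144), where the libraries had 5.59%, 4.35% and 3.74%, on 24 retained and 256 spliced reads against 4 and 237 in WT. Intron 5 of ZNF195-217 stood at 50.8% ± 8.84 in WT and 81.3% ± 3.15 in KO-4 (SD, n = 3), with an adjusted p of 0.0118 in the authors' deposited table and too few reads for the quasi-binomial test. Intron 5 of ZNF197-203 stood at 49.4% ± 6.58 in WT and at 24.6% ± 1.45 in KO-3 (SD, n = 3), with an adjusted p of 0.0228 in the authors' deposited table and 0.173 in the quasi-binomial test.

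**Figure D2:**
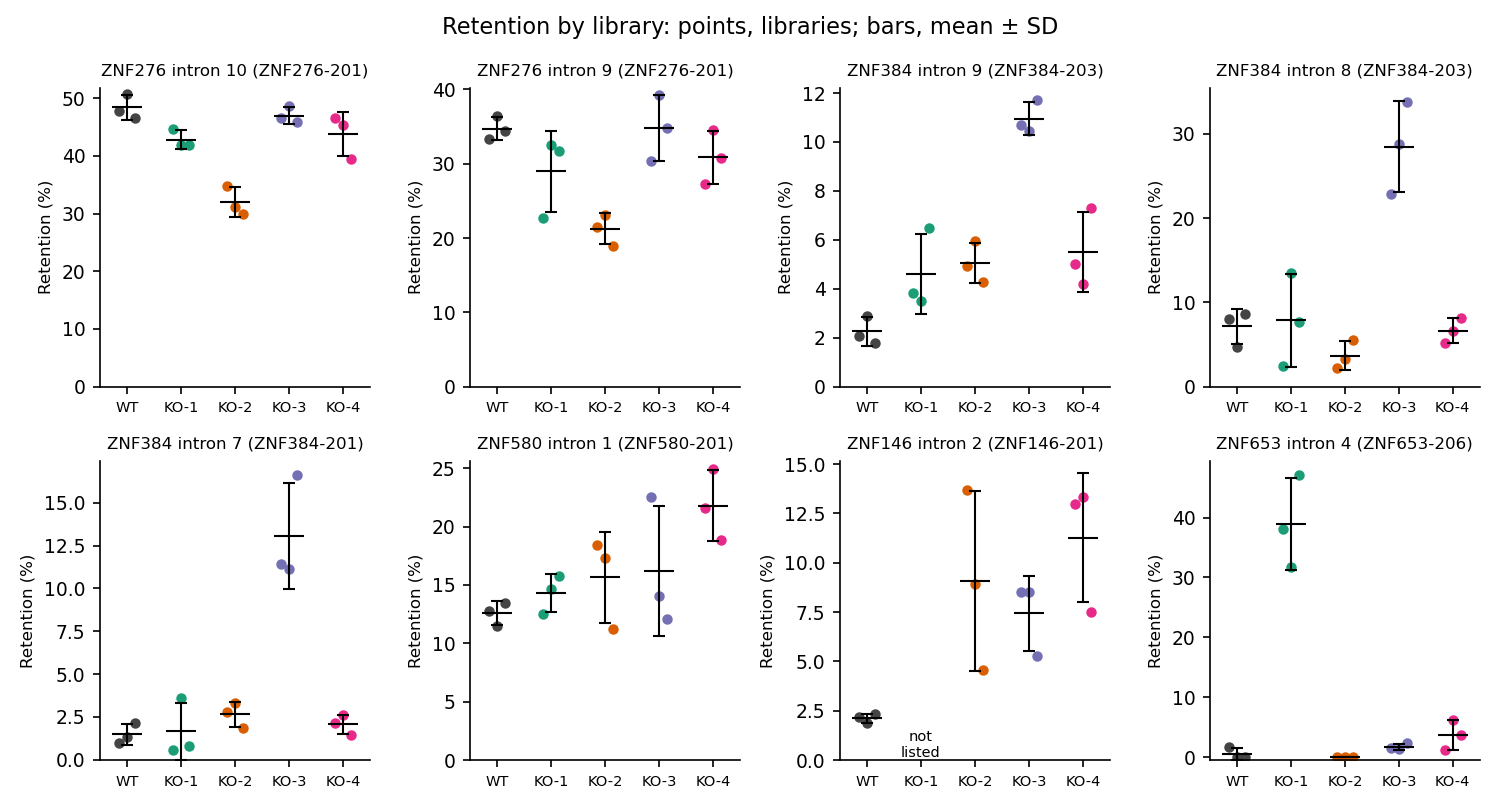
Retention (vertical axis, %) of 8 ZNF introns in each library (points) of WT and the 4 clones, with the mean and SD of each group of 3 libraries (bars). The KO-2 points of ZNF276 introns 9 and 10 and the KO-3 points of the 3 ZNF384 introns lie clear of the WT points, and ZNF653 intron 4 stands at 31.7% to 47.1% in KO-1 alone; ZNF146 intron 2 was not listed for KO-1.

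Across the tested ZNF introns as a group, retention differed little between clones and WT. The median change was 0.19 in log2 odds for KO-1, 0.02 for KO-2, 0.03 for KO-3 and 0.09 for KO-4, beside 0.13, 0.10, 0.02 and 0.17 over all introns tested. ZNF introns on chromosome 19 had medians of 0.07, 0.05, -0.03 and -0.03, over 21, 33, 35 and 36 introns, and ZNF introns elsewhere had 0.20, 0.01, 0.03 and 0.10. Over the 127 ZNF introns tested in all 4 clones, the single WT libraries had medians of -0.04, -0.10 and 0.18 around their mean. This is a spread of single libraries over another set of introns, so it does not measure the error of the group medians. No test of the group medians was made.

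ZNF introns with no annotated exon inside had higher medians, 0.32, 0.07, 0.19 and 0.34 over 43, 67, 61 and 64 introns. Of these, 72.1%, 56.7%, 67.2% and 78.1% had a value above 0, beside 64.6%, 60%, 52.8% and 67.2% of all introns of that class. ZNF introns with an exon inside had medians of 0.14, -0.01, -0.05 and -0.05. The comparisons share the WT libraries, so the 4 values of a class are not independent.

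The spliced reads of a gene, summed over its introns listed in all 4 tables and scaled by the median ratio between libraries, follow the amount of its spliced RNA. Fewer cells with an RNA and less RNA per cell cannot be told apart. Of the 156 ZNF genes with such introns, 109 had a mean of at least 50 spliced reads per library and were tested. The median tested ZNF gene had 203 spliced reads per library over 4 introns, or 55.6 per intron, against 892 over 7 introns, or 110 per intron, for all 8855 genes.

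Spliced reads rose for 2 ZNF genes and fell for 8 in KO-1 (limma adjusted p under 0.05), where 13.5% of all genes rose and 12.5% fell. In KO-2, 12 rose and 15 fell, beside 21.7% and 20.9% of all genes. In KO-3, 11 rose and 16 fell, beside 15% and 15.8%, and in KO-4, 9 rose and 19 fell, beside 24.4% and 24.2%. In either direction this was 9.17%, 24.8%, 24.8% and 25.7% of the ZNF genes. The median ZNF gene stood at -0.09, -0.09, -0.05 and -0.03 on the log2 scale in KO-1 to KO-4, with the median of all genes at 0.00 in each. The part of the lower read depth of ZNF genes in these counts was not tested. Scaled by total spliced reads, the ZNF split for KO-3 was 3 higher and 23 lower, for KO-2 11 and 17, and for KO-4 10 and 14. All 8855 genes shifted as well under that scaling. In KO-3, 739 were higher and 2114 lower, against 1326 and 1399 with median ratios. In KO-2 they were 1825 and 1947, and in KO-4 2333 and 1898.

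Over the 83066 introns listed in all 4 tables, the 612 ZNF introns took 0.184% ± 0.00439 (SD, n = 3) of the spliced reads in WT. ZNF introns listed for only some clones are not part of this share. The value was 0.175% ± 0.00161 in KO-1 and 0.174% ± 0.00127 in KO-3, with every library of both below every WT library. It was 0.181% ± 0.00616 in KO-2 and 0.187% ± 0.000844 in KO-4, which overlapped WT. An exact two-sided permutation test gave p = 0.1 for KO-1 and for KO-3, the smallest that 3 libraries against 3 allow, and p = 0.4 for KO-2 and for KO-4. The 110 chromosome 19 introns among them took 0.0249% ± 0.000999 in WT, 0.0235% ± 0.000278 in KO-1 and 0.0231% ± 0.000313 in KO-3.

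The 29 genes tested on chromosome 19 had median log2 changes of -0.09, -0.13, -0.06 and -0.04 in KO-1 to KO-4, and the 80 others had -0.09, -0.08, -0.05 and -0.01. Other genes of chromosome 19, 557 of them, had medians of 0.02, 0.07, -0.03 and 0.09. Called shares on chromosome 19 were 3.45%, 27.6%, 13.8% and 27.6%, beside 11.2%, 23.8%, 28.8% and 25% for the other ZNF genes. Other genes of chromosome 19 had 24.2%, 46%, 31.4% and 51.9% called, and all genes had 26%, 42.6%, 30.8% and 48.7%. The 28 genes with a KRAB match had medians of -0.11, -0.17, 0.03 and 0.01, with 3, 4, 1 and 4 calls (10.7%, 14.3%, 3.57% and 14.3%). The 81 without had -0.08, -0.07, -0.06 and -0.05, with 7, 23, 26 and 24 calls (8.64%, 28.4%, 32.1% and 29.6%). No test of these differences was made.

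The clusters of chromosome 19 held few tested genes and few calls each, beside 26%, 42.6%, 30.8% and 48.7% of all genes called in KO-1 to KO-4, and no test between clusters was made. The cluster of 10 genes between ZNF557 and ZNF562 had 6 tested genes, with 1 call, lower, in KO-2, and 1 higher and 2 lower in KO-4. In the cluster of 10 genes around ZNF226 and ZNF428, 4 genes were tested, and all calls were higher (KO-2 had 2, KO-3 had 1 and KO-4 had 1). The KO-2 call of ZNF428 (0.19, limma adjusted p = 0.0368) was lost without any 1 WT or KO-2 library (adjusted p = 0.0551 to 0.0936). The median retention of its introns in WT was 9.89%. The cluster of 7 genes that holds ZNF579, ZNF580 and ZNF581, none with a KRAB match, had 5 tested genes with 1 rise each in KO-2 and KO-3 and 2 falls in KO-4. The cluster with the most KRAB matches, 10 of 11 genes from ZNF264 to ZNF446, had only 2 genes deep enough to test and no call in any clone. Of the remaining 3 clusters, that of ZNF653 had 0 calls over 2 tested genes, that of ZNF738 had 1, lower in KO-2, over 1 tested gene, and that of ZNF480 had 1 lower in KO-1 and 1 lower in KO-2 over 3 tested genes. The plot of gene changes shows the spread in each clone.

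**Figure D3:**
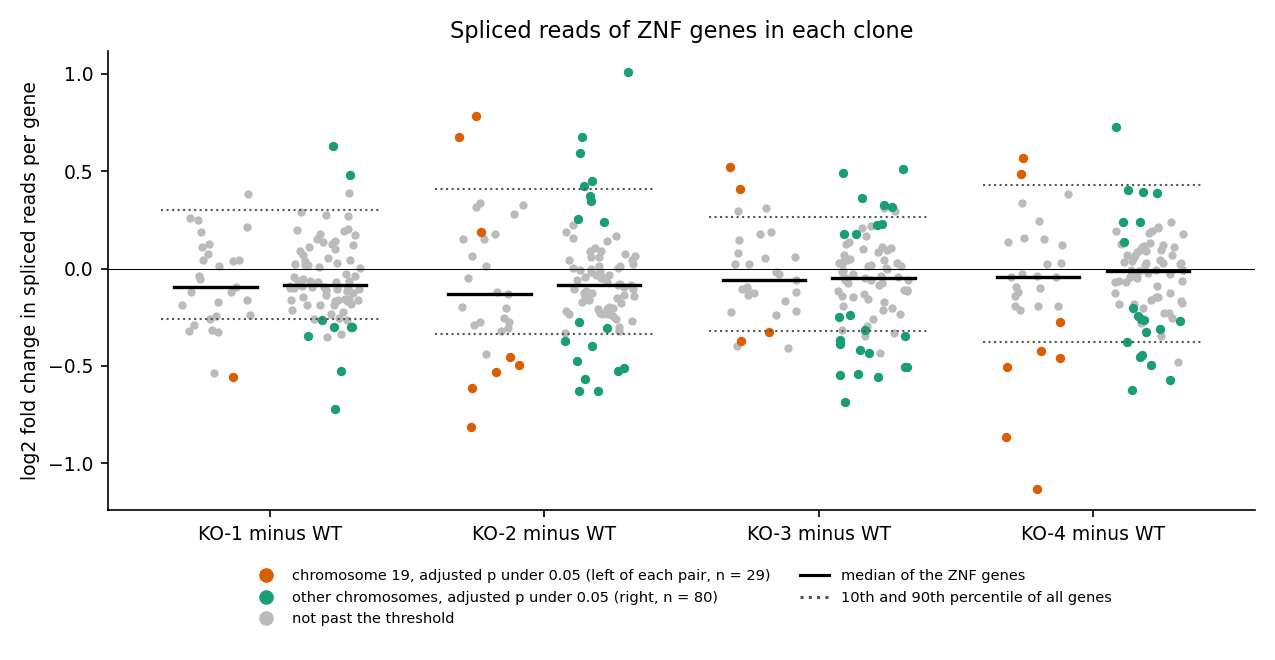
log2 fold change in spliced reads per gene (vertical axis) of the 109 tested ZNF genes in each clone against WT, chromosome 19 genes on the left of each pair (n = 29) and others on the right (n = 80). Colour marks genes past the threshold, black bars the medians and dotted lines the 10th and 90th percentile of all 8855 genes; both groups have medians between -0.13 and -0.01.

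Of the 109 genes, 62 passed the threshold in at least 1 clone and 47 in none, and none passed it in all 4. The 5 that fell in 3 clones were ZNF146, ZNF24, ZNF496, ZNF507 and ZNF664, which are named because of that count, after their values were seen. All 5 fell in KO-2, KO-3 and KO-4, which share their WT libraries, and none in KO-1. Whether the calls of ZNF146, ZNF24, ZNF496 and ZNF507 hold without single libraries was not examined. No tested ZNF gene rose in 3 clones. Calls in several clones were not counted over all genes, of which 26%, 42.6%, 30.8% and 48.7% were called in KO-1 to KO-4. Whether such repeated calls are more or less common among ZNF genes than among other genes was not tested.

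ZNF146 had 632, 595 and 597 scaled spliced reads in WT and 398 ± 18.8, 485 ± 29.1 and 429 ± 34.4 (SD, n = 3) in KO-2, KO-3 and KO-4. Its log2 changes were -0.61, -0.33 and -0.50, each ± 0.09 (SE; limma adjusted p = 7.23e-06, 0.00722 and 6.24e-05). KO-1 lay at 545 ± 48.4 (limma adjusted p = 0.189). KO-2, KO-3 and KO-4 are also the clones for which the authors' deposited tables called its intron 2. That intron was not listed for KO-1 and so could not be called there. The spliced reads of introns listed for only some clones are not part of the sum.

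ZNF664, a C2H2 protein encoded on chromosome 12, had 499, 462 and 505 scaled spliced reads in WT. KO-2 had 339, 282 and 329, KO-3 had 340.4, 355 and 336, and KO-4 had 333, 414 and 387, so none of these 9 libraries reached the WT range. The log2 changes were -0.63, -0.51 and -0.37, each ± 0.10 (SE; limma adjusted p = 1.74e-05, 0.000445 and 0.0029). ZNF24, a SCAN domain protein known to repress VEGF transcription, went from 471 ± 4.54 in WT to 331 ± 21, 354 ± 39.3 and 381 ± 44.9 (SD, n = 3).

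ZNF507 went from 254 ± 18.4 in WT to 176 ± 14.2, 197 ± 22.8 and 186 ± 23.8 (SD, n = 3) in KO-2 to KO-4, and KO-1 stood at 203 ± 17.4 with a limma adjusted p of 0.0583. ZNF496, a SCAN domain protein that binds the histone methyltransferase NSD1, went from 539 ± 18.2 to 447 ± 43.5, 416 ± 61.7 and 448 ± 49.2. Its limma adjusted p-values were closer to the threshold, at 0.0485, 0.0103 and 0.0451.

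ZNF121, on chromosome 19, showed the largest fall of a ZNF gene in KO-2. It had 285, 216 and 265 scaled spliced reads in WT, 121, 161 and 154 in KO-2 and 132, 150.5 and 136 in KO-4. These were changes of -0.82 and -0.86, each ± 0.13 (SE, log2; limma adjusted p = 2.16e-05 and 8.54e-06). KO-1 and KO-3, at 214 ± 7.24 and 215 ± 15.7 (SD, n = 3), did not pass. ZNF148, also called ZBP-89, a factor that binds GC-rich promoters, fell in KO-2 and KO-3, from 271 ± 16.2 in WT to 175 ± 6.1 and 185 ± 7, with 244 ± 34.3 in KO-1 and 227 ± 6.05 in KO-4.

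ZNF185 was the only tested ZNF gene called in both directions. It had 172, 224 and 196 scaled spliced reads in WT, 267, 306 and 343 in KO-1 and 316, 345 and 315 in KO-4. These were rises of 0.63 and 0.73, each ± 0.12 (SE, log2; limma adjusted p = 0.000536 and 4.19e-05). In KO-3 it had 124, 161 and 152 (-0.43, limma adjusted p = 0.0102), a call that did not hold without WT library 2 (-0.34, adjusted p = 0.0688), without KO-3 library 1 (-0.32, adjusted p = 0.071) or with all introns of the KO-3 table (-0.32, adjusted p = 0.079). ZNF217, an oncogenic transcriptional regulator amplified in breast cancers, rose in KO-1 and KO-4 as well, from 194 ± 17.2 in WT to 272 ± 34.1 and 254 ± 5.26, and had 160.3 ± 8.67 in KO-2 and 158 ± 17.8 in KO-3 (SD, n = 3). Without WT library 3 the KO-4 rise had a limma adjusted p of 0.0549.

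The largest rise of a tested ZNF gene was that of ZNF503, a transcriptional repressor of developing tissues, in KO-2. It had 106, 115 and 93.3 scaled spliced reads in WT and 246, 177 and 217 in KO-2, a change of 1.01 ± 0.16 (SE, log2; limma adjusted p = 2.17e-05). In KO-3 it had 148 ± 19.4 (0.49, limma adjusted p = 0.0224), which did not pass without KO-3 library 3 (0.39, adjusted p = 0.109) or WT library 3 (0.41, adjusted p = 0.0954).

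ZNF581 rose in KO-2 from 124, 124 and 123 to 222, 209 and 207 (0.78, limma adjusted p = 0.000432). In KO-3 its libraries spread over 226, 192 and 128 (0.52, limma adjusted p = 0.018), with no call without KO-3 library 1 (adjusted p = 0.138) or 2 (adjusted p = 0.0659). ZNF513 rose in KO-2 from 153 ± 25.1 to 245 ± 35.9 (SD, n = 3).

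In KO-4 the largest rise after ZNF185 was that of ZNF428, whose WT libraries lay close together at 563, 566 and 567 scaled spliced reads. KO-4 had 859, 844 and 815, a change of 0.57 ± 0.07 (SE, log2; limma adjusted p = 6.48e-07), and the other clones lay at 617 ± 34.1, 643 ± 10.5 and 555 ± 12.9 (SD, n = 3). ZNF414 rose in KO-4 from 175 ± 14.7 to 246 ± 16.6. The largest fall in KO-4, of ZNF579, was uneven. It had 117, 105 and 53.3 scaled spliced reads in WT and 66.9, 18.1 and 49.9 in KO-4 (-1.13, limma adjusted p = 0.0374), and the call did not hold without WT library 1 or 2 or without KO-4 library 2 (-0.58 without the last, adjusted p = 0.115 to 0.294 over the 3). ZNF768 fell in KO-4 from 141 ± 11.1 to 91.5 ± 5.04.

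KO-1, the clone with the fewest reads, had the smallest counts of calls, and the part of depth in them was not tested. ZNF385B, a C2H2 protein, fell from 113 ± 5.72 scaled spliced reads in WT to 69.3 ± 13.7 (SD, n = 3), a change of -0.72 ± 0.17 (SE, log2; limma adjusted p = 0.00322). ZNF480, a KRAB gene of chromosome 19, fell from 402, 347 and 338 in WT to 258, 249 and 229 in KO-1 (-0.56, limma adjusted p = 0.00111), and the other clones lay at 367 ± 45, 312 ± 47.8 and 351 ± 21.9. ZNF74, also with a KRAB match, fell from 92.3 ± 7.2 to 65.6 ± 19.8 (limma adjusted p = 0.0337), which was lost without WT library 1 or 2 or KO-1 library 1 or 2 (adjusted p = 0.0611 to 0.166).

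In KO-3 the largest fall was that of ZNF106, an RNA-binding protein, from 109, 151 and 137 scaled spliced reads in WT to 81.9, 82.5 and 79.8 (-0.68 ± 0.15, SE, log2; limma adjusted p = 0.00163). ZNF397 had 55.8 ± 6.47 in WT and 79.4 ± 3.49 in KO-3 (limma adjusted p = 0.039), and ZNF696 had 99.7 ± 5.17 and 69.9 ± 23.5 (limma adjusted p = 0.049; SD, n = 3). The call of ZNF397 was lost without WT library 2 or 3 or any 1 KO-3 library (adjusted p = 0.0622 to 0.124), and that of ZNF696 without any 1 WT library or KO-3 library 1 or 2 (adjusted p = 0.0745 to 0.223).

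**Figure D4:**
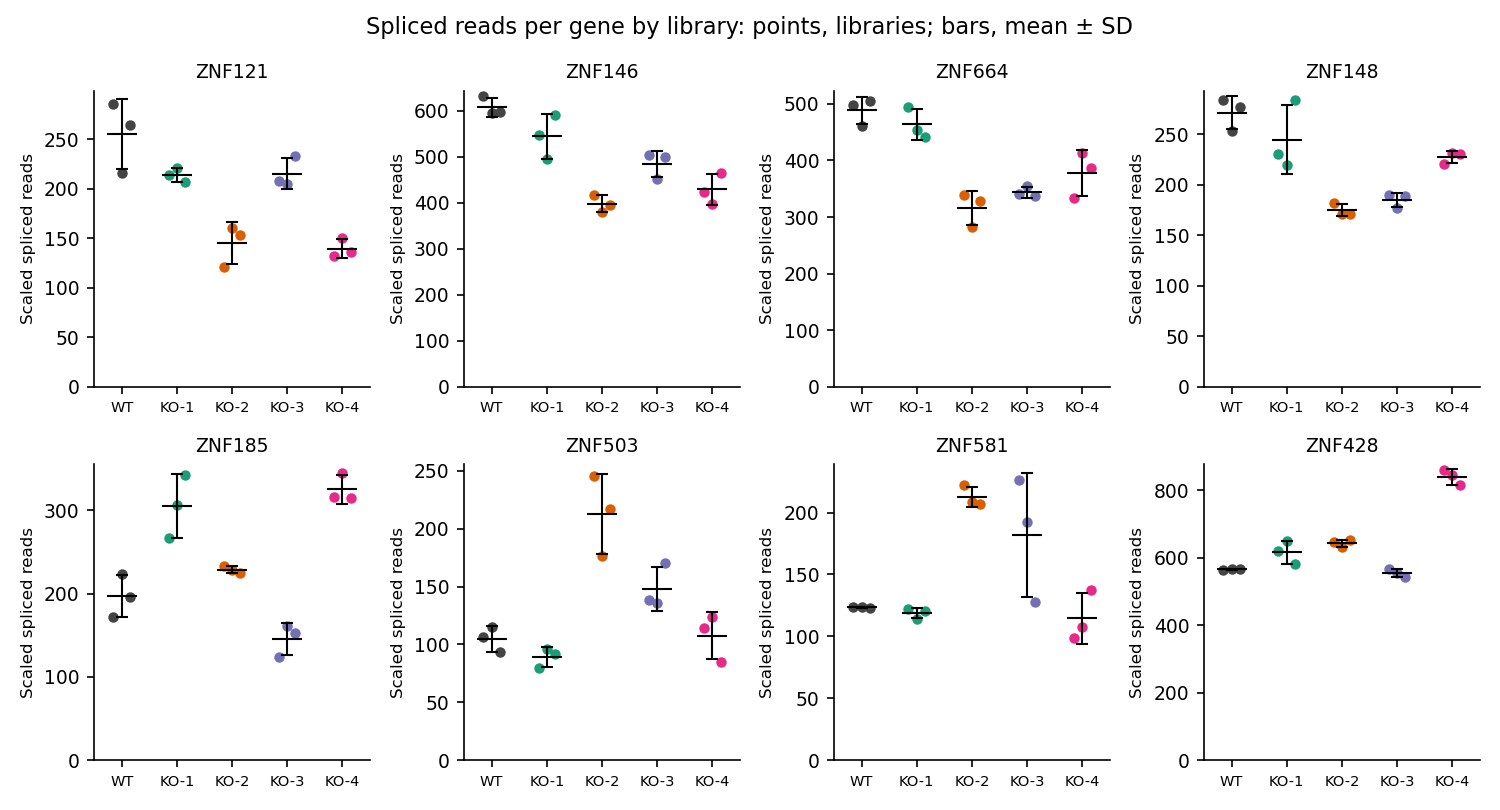
Scaled spliced reads (vertical axis) of 8 ZNF genes in each library (points) of WT and the 4 clones, with the mean and SD of each group of 3 libraries (bars). ZNF121, ZNF146, ZNF664 and ZNF148 are lower in some or most clones, ZNF185 is high in KO-1 and KO-4 and low in KO-3, ZNF503 and ZNF581 are highest in KO-2 and ZNF428 in KO-4.

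The 5 ZNF genes with the most spliced reads include one that fell in 2 clones, ZNF330. ZNF207 had 4833 ± 144 scaled spliced reads in WT, ZNF638 had 3336 ± 109, ZNF330, a nucleolar protein, had 1651 ± 90.1, ZNF706 had 1520 ± 108 and ZNF384 had 1414 ± 70.1 (SD, n = 3). These are sums over different numbers of introns, so they do not rank the genes. ZNF207 rose by 0.18 ± 0.05 (SE, log2) in KO-3 (limma adjusted p = 0.00989), which was not called when scaled by total spliced reads (0.10, adjusted p = 0.104) or without KO-3 library 1 (adjusted p = 0.0562). ZNF330 fell in KO-1 (-0.30 ± 0.07, limma adjusted p = 0.00447) and in KO-4 (-0.33 ± 0.07, adjusted p = 0.000868). ZNF706 rose in KO-3 and ZNF638 in KO-4, by 0.18 and 0.14, each lost without any 1 of 4 libraries (adjusted p = 0.0597 to 0.101 and 0.0593 to 0.174).

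A list of 18 ZNF genes with roles known apart from KRAB repression had 16 genes tested. Of these 1, 2, 3 and 3 rose and 3, 2, 3 and 3 fell in KO-1 to KO-4, with medians of -0.10, -0.06, -0.03 and -0.04 on the log2 scale. The share called was 25%, 25%, 37.5% and 37.5%, beside 26%, 42.6%, 30.8% and 48.7% of all genes in either direction. ZNF598, the sensor of collided ribosomes, was lower in all 4 clones, from 1185 ± 23.6 in WT to 1047 ± 124, 1050 ± 50.4, 1006 ± 67.3 and 990.4 ± 35.4 (SD, n = 3). It passed the test in KO-3 and KO-4 (limma adjusted p = 0.0233 and 0.00829), in KO-3 not without WT library 1 or 3 or KO-3 library 1 (adjusted p = 0.0528 to 0.117), and had adjusted p-values of 0.082 and 0.0723 in KO-1 and KO-2.

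The KRAB co-repressor list holds the proteins through which KRAB zinc finger proteins act. Of its 20 names, 19 were tested. In KO-1 1 rose and 3 fell, in KO-2 0 rose and 8 fell, in KO-3 5 rose and 6 fell, and in KO-4 4 rose and 3 fell, with medians of -0.02, -0.15, -0.05 and 0.00. The share called was 21.1%, 42.1%, 57.9% and 36.8%, beside 26%, 42.6%, 30.8% and 48.7% of all genes. CHD3, a nucleosome remodeller of the NuRD complex, had 2164 ± 89.1 scaled spliced reads in WT and fell in every clone, to 1260 ± 63.8, 939 ± 71.5, 1636 ± 39.7 and 1364 ± 77.4 (SD, n = 3; limma adjusted p of at most 7.71e-05). No library of any clone reached the lowest WT library. TRIM28, the protein that KRAB domains bind, had 30758 ± 1855 in WT and fell in KO-2 (-0.24, limma adjusted p = 0.00167) and KO-4 (-0.17, adjusted p = 0.0182). HDAC2, a histone deacetylase, fell in KO-2 (-0.23) and rose in KO-3 (0.25) and KO-4 (0.20; limma adjusted p = 0.00158, 0.00105 and 0.00348). MORC2, which works with the HUSH silencing complex, fell in KO-1 (-0.27) and rose in KO-4 (0.28; limma adjusted p = 0.0263 and 0.00988). Whether the calls of this list hold without single libraries was not examined.

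Retention of this list's introns was called at 0 of 75, 1 of 83, 0 of 81 and 3 of 90 introns tested in KO-1 to KO-4, beside 1.47%, 1.6%, 0.713% and 1.97% of all introns. The calls, all higher, were TRIM28 in KO-2 (chr19:58545098-58545424, 1.03 in log2 odds, quasi-binomial adjusted p = 0.00897) and in KO-4 (chr19:58548777-58548861, 0.59, adjusted p = 0.0127), HDAC1 in KO-4 (0.71, adjusted p = 0.00891) and DNMT1 in KO-4 (1.05, adjusted p = 0.0326). The ZFP, ZSCAN and ZKSCAN relatives had 8 genes tested, with medians of 0.03, 0.09, -0.08 and 0.15 and 1, 2, 2 and 1 calls (12.5%, 25%, 25% and 12.5%, beside 26%, 42.6%, 30.8% and 48.7% of all genes).

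The clones were also compared with one another, without the shared WT libraries. Retention differed among clones at 8 of 149 ZNF introns tested, where 6.41% of all introns did. Spliced reads differed for 58 of 109 ZNF genes, where 75.5% of all genes did (limma F test).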

How the data were processed

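The submitters' processing notes name cutadapt 2.0, STAR 2.7.1a and the build hg38. Each of the 4 deposited tables compares 1 clone with WT and lists, for every intron, the junction reads of the retained and the spliced form in 3 libraries, their form lengths and inclusion levels. The p-values and FDR in them are the authors' and are used as deposited, and how they were tested is not given in the sources used here. Libraries are numbered as they stand in each list, which names none.

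Retention is retained reads over form length as a share of both forms so scaled. Introns with means of at least 10 retained and 10 spliced reads were tested with a quasi-binomial model, its dispersion moderated across introns with limma 3.58.1 (R 4.3.3) and not allowed under 1. Spliced reads were summed per gene over introns listed in all 4 tables, scaled by median ratios, and tested as log2 (reads + 0.5) with limma over all 15 libraries, for genes averaging 50 reads or more. Every p was adjusted by Benjamini-Hochberg over all introns or genes tested, with a threshold of 0.05, and both tests were tested on simulated data. The planned count model of spliced reads per gene was replaced by limma. The reads come as lists in 1 cell per group and were not recognised as counts, although they are whole numbers. Clones share the WT libraries, the p-values measure spread between libraries, and intervals cover counting error only.

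Annotation and sequences are from GENCODE 29. The splice site sequences of ZNF276 are not reported here. Members and gene lists were chosen with earlier results of these data known. The introns and genes named are those with the largest called changes of each clone, the most and least retained testable introns and the genes with the most spliced reads. Others are said to have been chosen after their values were seen.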

Additional observations from a re-analysis of the deposited data

Results flagged for a closer look

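Among the named introns and genes, 6 of 16 introns and 20 of 24 genes differed among the 4 clones (adjusted p-values of the test among clones, quasi-binomial for introns and limma F test for genes). Over all features tested the shares were 6.41% of introns and 75.5% of genes, and most of the named ones were picked for large called changes in a clone, so these counts are a description. Groups of 3 libraries were not screened for single stray libraries. The introns were ZNF276 intron 9 (0.0024) and intron 10 (0.000156), ZNF384 at chr12:6669190-6670759 (0.00188), chr12:6670839-6672349 (3.72e-12) and chr12:6670839-6673215 (4.59e-12), and ZNF692 (0.0337).

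For spliced reads, ZNF185 gave 5.94e-08, ZNF428 8.46e-07, ZNF217 1.59e-06 and ZNF503 1.81e-06. ZNF581 gave 4.43e-05, ZNF121 5.39e-05, ZNF385B 0.000177, ZNF664 0.000183 and ZNF480 0.000615. ZNF148 gave 0.00106, ZNF207 0.00113, ZNF106 0.00186, ZNF768 0.00567, ZNF330 0.00732, ZNF397 0.00782 and ZNF638 0.00806. ZNF384 gave 0.0122, ZNF513 0.0186, ZNF414 0.0215 and ZNF579 0.0495.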

How the results depend on the processing

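No paired analysis was possible because the columns carry no replicate numbers. The planned count-model tests and their scalings were not run. The limma-voom fit, the scaling by total spliced reads and the introns of each clone's own table were chosen after seeing the data. Counts of introns called for KO-1 to KO-4 were 0, 2, 3 and 1. The authors' deposited adjusted p gave 5, 9, 10 and 14. With no filter on low counts KO-1 had 1 and KO-4 had 2. All introns then had 316 higher and 52 lower of 90007 in KO-1, and 459 and 131 of 101710 in KO-4. With at least 50 retained and 50 spliced reads KO-3 had 0 of 11 tested, since the 3 called introns have too few retained reads for that filter and were not tested. By limma on log2 odds KO-2 and KO-4 had 0, where all introns had 7 higher and 2 lower in KO-2 and 8 and 0 in KO-4. Of introns with no annotated exon inside, KO-2 had 0, KO-3 had 1 and KO-4 had 0. All introns of that class had 85 higher and 5 lower of 10979 in KO-2. They had 45 and 8 of 9895 in KO-3, and 130 and 23 of 11411 in KO-4. Centred on the median intron, KO-4 had 1 lower and 0 higher, where all introns had 259 lower and 190 higher. Without 1 library at a time the counts ran from 0 to 2, 1 to 4, 3 to 4 and 0 to 6. Without WT library 3, KO-1 had 2, KO-2 had 4 and KO-4 had 6. Calls over all introns rose there too. Higher and lower calls went from 243 and 33 to 522 and 47 in KO-1. They went from 307 and 72 to 601 and 92 in KO-2, and from 374 and 104 to 1043 and 125 in KO-4. Without KO-2 library 3, KO-2 had 1, and without WT library 1 or 2 or any 1 KO-4 library, KO-4 had 0. All introns had 290 higher and 53 lower in the first case. In the KO-4 cases they had 149 to 235 higher and 43 to 100 lower.

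For spliced reads, the genes lower in KO-1 went from 8 to 5 with only that clone and WT in the fit and to 5 with the introns of its own table. With own tables, the genes lower in KO-2 went from 15 to 23 and those higher in KO-4 from 9 to 14. Scaled by total spliced reads, the ZNF genes higher in KO-3 went from 11 to 3, beside 1326 to 739 of all 8855 genes. Without 1 library at a time, higher genes numbered 2 to 3, 8 to 11, 2 to 9 and 7 to 10 and lower genes 5 to 9, 8 to 15, 11 to 12 and 11 to 17 in KO-1 to KO-4. Lower genes went to 5 in KO-1 without KO-1 library 3, to 8 and 9 in KO-2 without WT library 1 and KO-2 library 3, and to 11 and 12 in KO-4 without KO-4 library 2 and WT library 1. Higher genes in KO-3 went to 2 without KO-3 library 1, to 7 without KO-3 library 2 or WT library 1, and to 5 and 6 without WT libraries 2 and 3. Of the recomputed tests of single named introns and genes, 393 kept their direction and side of the threshold, 78 lost the call and 0 reversed. The cause of these shifts was not tested. Thin coverage of ZNF introns limits what could be tested, most of all in KO-1.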
